A study of Drosophila melanogaster with 2 samples.

Results

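Translation factor and aminoacyl-tRNA synthetase genes were taken as the protein-coding genes of the Ensembl annotation whose symbol starts with eIF or eEF, or is an amino acid code (or GluPro) followed by RS, with the suffix -m for mitochondrial enzymes. This rule gave 85 of the 13968 protein-coding genes on the 7 chromosome arms used, namely 44 initiation factor genes, 8 elongation factor genes, 18 cytoplasmic synthetase genes and 15 mitochondrial synthetase genes. The peaks come from chromatin immunoprecipitation followed by sequencing on whole Drosophila melanogaster embryos, from a stable transgenic line in which Sox102F, an HMG-box protein of the SoxD family, carries GFP at its C-terminus. The labels' descriptions name an anti-GFP antibody while their antibody field names Sox102F, and the stage of 12 to 14 h is that of the source name, which the age field does not repeat. There was 1 group of 2 biological replicates, numbered 2 and 3, both from that line, and no source used here says which sequences drive the transgene. In whole embryos, a peak present in few cells and a weak peak present in many cannot be told apart.

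The optimal list held 7488 peaks, which were exactly the highest peaks by signal value of the 30000 peaks called on both replicates pooled, and each replicate had a list of 30000 peaks of its own. The signal value is the authors' value for a peak, with no scaling for depth stated, and is compared only within a list. The lists give no read counts, so the depth of the samples is unknown. Genes are called promoter-bound here if 500 bp or less separated one of their transcription start sites (TSSs) from a summit of the optimal list, and a summit was counted in a gene when it lay between the annotated gene start and end. Intervals of shares are 95% Wilson intervals and cover the counting of genes only. Coordinates are those of dm6.

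Protein synthesis begins when initiation factors bring the small ribosomal subunit, the initiator tRNA and the capped mRNA together and the large subunit joins. Elongation factors then deliver aminoacyl-tRNAs and move the ribosome along the mRNA. Aminoacyl-tRNA synthetases attach each amino acid to its tRNA, in the cytoplasm or, with largely separate nuclear-encoded enzymes, in mitochondria. The core factors and enzymes are used by nearly all cells. The rule here goes by symbol alone, so some members may be used less widely.

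The bases around the promoter summits of 10 bound members, 3 initiation factor, 2 elongation factor, 3 cytoplasmic synthetase and 2 mitochondrial synthetase genes, were read from the RefSeq genome of the dm6 build. They are shown on the strand of the named gene, so that the peaks with and without the Sox core can be seen side by side. Each run covers 50 bp to either side of the summit and ends earlier where an annotated UTR begins. They are not the highest of each class throughout. Nor do they stand for all members in the Sox core, ACAAT. Only the run at GluProRS held it, while it was within 50 bp of 11 of the 23 member summits. Members on 1 chromosome arm, eIF6, eIF3m and CysRS-m among them, are not shown, and neither are those of eIF5B and SerRS, whose summits lay inside a UTR. Capitals mark any of 10 words on either strand. These were the Sox core ACAAT and its longer form AACAAT, the backward spelling TAACA and its longer form TAACAA, the DNA replication-related element (DRE) TATCGATA and the core of Motif 1, GGTCACACT. The others were the E-box CACGTG, the GATA word AGATAA, the repeat GAGAGAG and the homeodomain word TAATTA. Each longer form holds its shorter one, and the backward spelling is not ACAAT read on the other strand.
eIF4EHP, chr3R:24109156-24109256, minus strand: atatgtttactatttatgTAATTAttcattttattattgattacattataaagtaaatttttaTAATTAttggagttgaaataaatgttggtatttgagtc
eIF3h, chr2L:5052444-5052544, minus strand: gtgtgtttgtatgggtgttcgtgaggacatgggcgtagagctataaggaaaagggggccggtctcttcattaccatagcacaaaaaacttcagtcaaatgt
eIF2Balpha, chr3R:29935889-29935977, minus strand: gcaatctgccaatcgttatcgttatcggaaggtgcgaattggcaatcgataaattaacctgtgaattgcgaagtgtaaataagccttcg
eEF1gamma, chr3R:29220076-29220171, plus strand: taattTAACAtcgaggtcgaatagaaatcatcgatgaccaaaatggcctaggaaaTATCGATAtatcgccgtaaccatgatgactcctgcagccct
eEF2, chr2L:21682165-21682248, minus strand: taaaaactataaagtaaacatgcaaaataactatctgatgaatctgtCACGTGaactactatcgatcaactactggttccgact
IleRS, chr3L:22288429-22288529, plus strand: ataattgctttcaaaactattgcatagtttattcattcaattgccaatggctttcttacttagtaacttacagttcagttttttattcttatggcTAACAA
GluProRS, chr3R:23958483-23958583, minus strand: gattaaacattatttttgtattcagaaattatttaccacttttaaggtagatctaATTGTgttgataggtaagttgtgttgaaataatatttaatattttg
ThrRS, chr2L:12103500-12103600, plus strand: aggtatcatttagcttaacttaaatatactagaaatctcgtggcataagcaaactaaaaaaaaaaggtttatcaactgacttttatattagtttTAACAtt
ProRS-m, chr3L:2651914-2652014, minus strand: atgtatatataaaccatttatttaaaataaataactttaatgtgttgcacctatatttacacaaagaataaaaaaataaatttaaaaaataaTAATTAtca
ArgRS-m, chr3R:7886864-7886964, plus strand: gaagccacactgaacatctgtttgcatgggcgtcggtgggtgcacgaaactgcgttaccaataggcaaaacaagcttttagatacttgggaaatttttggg

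The run at eIF4EHP held neither ACAAT nor TAACA, while TAATTA occurred at 2 places, and that at ProRS-m held TAATTA near its 3′ end. The run at eEF1gamma held TATCGATA and TAACA, and that at eEF2 held CACGTG. The runs at IleRS and ThrRS held TAACA at their 3′ ends, and that at GluProRS held ACAAT on the opposite strand, close to the summit. The runs at eIF3h, eIF2Balpha and ArgRS-m held none of the words.

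Of the 85 genes, 23 were promoter-bound (27.1%, interval 18.8 to 37.3%), against 16.9% of all protein-coding genes. The classes had different shares. Cytoplasmic synthetase genes had 8 of 18 bound (44.4%, interval 24.6 to 66.3%) and elongation factor genes 4 of 8 (50%, interval 21.5 to 78.5%). The elongation count was 1 of 8 without replicate 3, where 15.6% of all genes were bound. It was also 1 among peaks above the median signal of the list, where 11.6% of all genes were bound. Initiation factor genes had 8 of 44 bound (18.2%, interval 9.51 to 32.0%) and mitochondrial synthetase genes 3 of 15 (20.0%, interval 7.05 to 45.2%), and both intervals hold the share of all genes. The intervals of the 4 classes overlap one another, and no test between classes was made. In the full pooled list, which reaches weaker peaks, 30 of the 85 genes had a promoter summit (35.3%, interval 26.0 to 45.9%), against 29.5% of all genes.

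**Figure D1:**
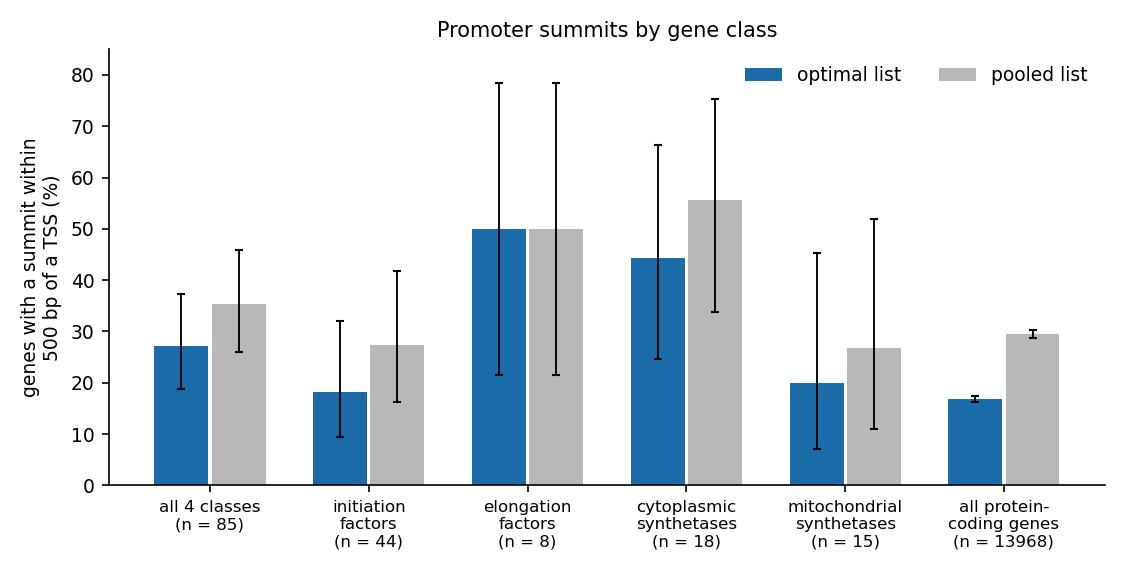
Share of genes (%) with a summit within 500 bp of a TSS in the optimal list (blue) and the pooled list (grey), for the 85 genes, their 4 classes and all protein-coding genes, with 95% Wilson intervals as error bars. In the optimal list the cytoplasmic synthetase and elongation factor classes stand at 44.4% and 50%, and the initiation factor and mitochondrial synthetase classes at 18.2% and 20.0%, near the 16.9% of all genes. The elongation count of 4 falls to 1 without replicate 3, where 15.6% of all genes were bound.

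Members more often had a close neighbour than other genes did, and genes with one were more often bound. Another protein-coding gene had a TSS within 500 bp for 43 of the 85 members (50.6%), against 30.8% of all genes. Among genes with such a neighbour, 15 of 43 members (34.9%) and 26.2% of all genes were promoter-bound. Among genes without one, 8 of 42 members (19.0%) and 12.8% of all genes were bound. Cytoplasmic synthetase genes had a neighbour most often, 15 of 18, and 6 of these 15 were bound, beside 2 of the 3 without one. All 3 bound mitochondrial synthetase genes had a neighbour, and 0 of the 8 without one were bound. Members with a single annotated TSS made up 65.9%, against 73.5% of all genes. The part of the neighbours in the count was not tested.

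The bound initiation factor genes spanned the widest range of signal. The highest peak was at eIF4EHP, which encodes a cap-binding protein that competes with eIF4E and represses translation of selected mRNAs. Its signal value was 2012 in the optimal list (rank 60), with 781 in replicate 2 (rank 55) and 1228 in replicate 3 (rank 63). The peak spans 24108954 to 24109412 on 3R, 246 bp upstream of the eIF4EHP TSS and 130 bp from that of CG18428, which is transcribed the other way. The promoter of eIF6, whose product binds the large ribosomal subunit and keeps it from joining the small one, had a signal value of 1850 (rank 80), with 684 in replicate 2 and 1170 in replicate 3. That summit, at 23850410 on 2R, lay 109 bp upstream of the eIF6 TSS and inside the gene ytr. These were the only member promoter peaks with a rank of 100 or better in the optimal list and in both replicate lists.

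The bound genes of the initiation complexes are given by complex, and 16.9% of all protein-coding genes were bound. Of the 3 subunits of eIF2, the factor that carries the initiator tRNA, only eIF2beta was bound (signal value 148), and of the 5 subunits of eIF2B, which exchanges the nucleotide of eIF2, only eIF2Balpha (220). Of the 16 eIF3 genes, whose products form the scaffold of the small-subunit complex, eIF3h (442) and eIF3m (256) were bound, and no other eIF3 gene had a promoter summit in the pooled list. Among the 13 genes named eIF4, which bind or unwind the capped end of the mRNA, eIF4EHP alone was bound, and eIF4A, eIF4E1 and eIF4G1, the genes of the main cap-binding complex, had no promoter summit in the optimal or pooled list. The remaining bound genes were eIF5B (419), which encodes the GTPase that joins the subunits, and eIF2D (184), whose product can bring tRNA to the ribosome without GTP. The 8 bound initiation factor genes had a median signal value of 338, against 308 for all promoter-bound genes.

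The peaks at elongation factor genes were weaker but lay close to the TSS. The highest was at eEF1gamma, a subunit of the complex that reloads eEF1alpha with GTP, with a signal value of 435 (rank 1498), 201 in replicate 2 and 217 in replicate 3. The others were at eEF5 (142), the fly gene of the hypusine-containing factor known elsewhere as eIF5A, at the translocation factor gene eEF2 (130) and at eEF1alpha1 (108), which encodes the factor that delivers aminoacyl-tRNA. None of these 3 peaks was found in replicate 2, while their signal values in replicate 3 were 57.9 at eEF5, 66.8 at eEF2 and 82.1 at eEF1alpha1. Their ranks in the optimal list, 5389, 5864 and 6861, were all in its lower part. The genes eEF1alpha2, eEF1beta, eEF1delta and eEFSec, which encodes the factor for selenocysteine, had no promoter summit in any of the 4 lists, and their nearest optimal summits were 13983 bp or more from a TSS.

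Among the cytoplasmic synthetases, IleRS had the highest promoter peak, with a signal value of 926 (rank 402), 361 in replicate 2 and 567 in replicate 3. SerRS followed with 799 (rank 541), 288 in replicate 2 and 512 in replicate 3, and GluProRS, which encodes a single protein with both glutamyl and prolyl activities, with 679 (rank 733), 259 in replicate 2 and 413 in replicate 3. These 3 genes had similar ranks in both replicates. ThrRS had a signal value of 582 (rank 942) and 322 in replicate 3 (rank 1152), but the nearest peak summit of replicate 2 was 16668 bp away. Among the 1000 highest optimal peaks, 27 (2.7%) lay in no peak of replicate 2. ValRS (329), AsnRS (273), MetRS (151) and AlaRS (147) were lower. The 8 bound genes had a median signal value of 455, beside 308 for all promoter-bound genes. ArgRS, CysRS, GlnRS, LeuRS, LysRS, TrpRS and TyrRS had no promoter summit in any list.

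The 3 bound mitochondrial synthetase genes lay within a narrow range. CysRS-m had a signal value of 289, with 109 in replicate 2 and 171 in replicate 3. ProRS-m had 262, with 102 in replicate 2 and 159 in replicate 3. ArgRS-m had 191, with 72.0 in replicate 2 and 118 in replicate 3. All 3 were found in both replicates. For 12 amino acids the rule gave both a cytoplasmic and a mitochondrial gene, and 16.9% of all protein-coding genes were bound. In 6 of these pairs only the cytoplasmic gene was bound, in 2 (arginine and cysteine) only the mitochondrial gene, in 4 neither, and in 0 both. Only 2 mitochondrial genes of these pairs were bound, so few pairs could have both, and the pairing was not tested.

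**Figure D2:**
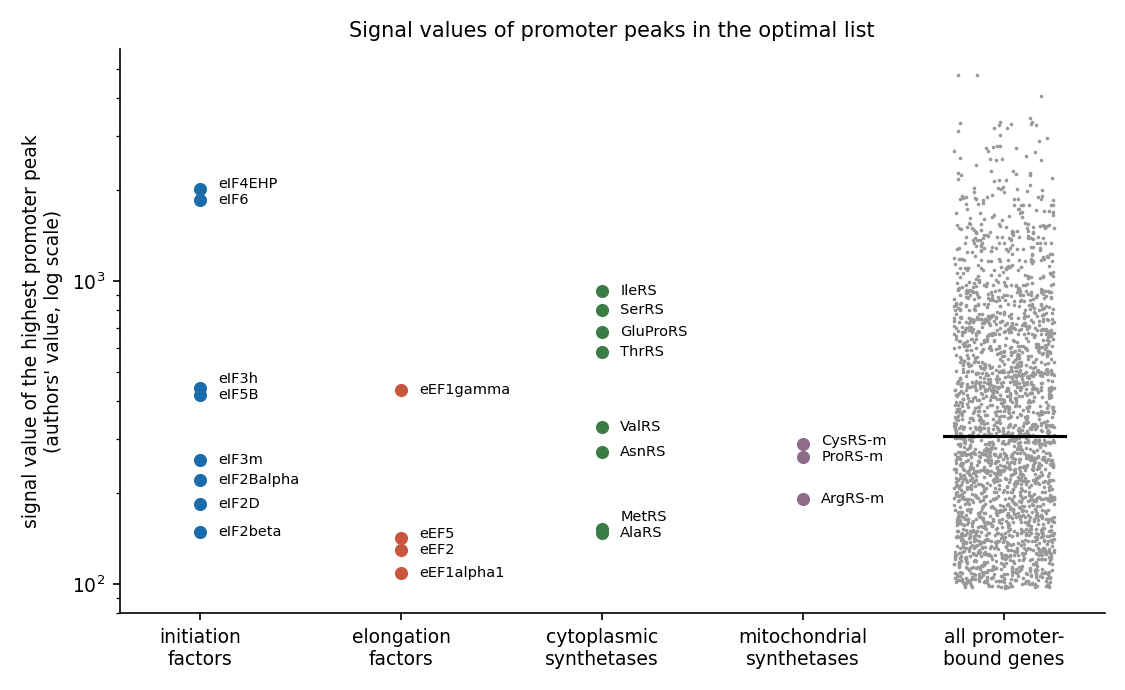
Signal value (the authors' value, log scale) of the highest promoter peak of each of the 23 bound genes, in columns by class, beside all 2362 promoter-bound genes in grey, whose median of 308 is the black line. The eIF4EHP and eIF6 peaks, at 2012 and 1850, stand above the other members, while eEF5, eEF2 and eEF1alpha1 lie at 108 to 142, near the lower end of the list.

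Most member summits lay just upstream of the TSS, and those of elongation factor genes nearest to it. Over the 23 bound genes the median position relative to the TSS, negative upstream, was -114 bp with quartiles of -170 and -51 bp, against -167 bp with quartiles of -267 and -103 bp for all promoter-bound genes. Upstream of the TSS lay 20 of 23 member summits (87.0%), against 88.8%. Within 100 bp lay 8 of 23 (34.8%), against 18.1%, and these were all 4 elongation factor summits (56 bp upstream at the farthest), 2 of 8 at initiation factor genes, 2 of 8 at cytoplasmic synthetase genes and 0 of 3 at mitochondrial synthetase genes. The summit at eEF5 lay 1 bp and that at SerRS 10 bp downstream of the TSS, both in the 5′ UTR. Only ValRS, 351 bp upstream, and eIF3h, 286 bp downstream in an intron, lay farther than 250 bp from a TSS. The eIF5B summit was 161 bp upstream of one TSS but within the 5′ UTR of the transcript that starts further upstream.

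**Figure D3:**
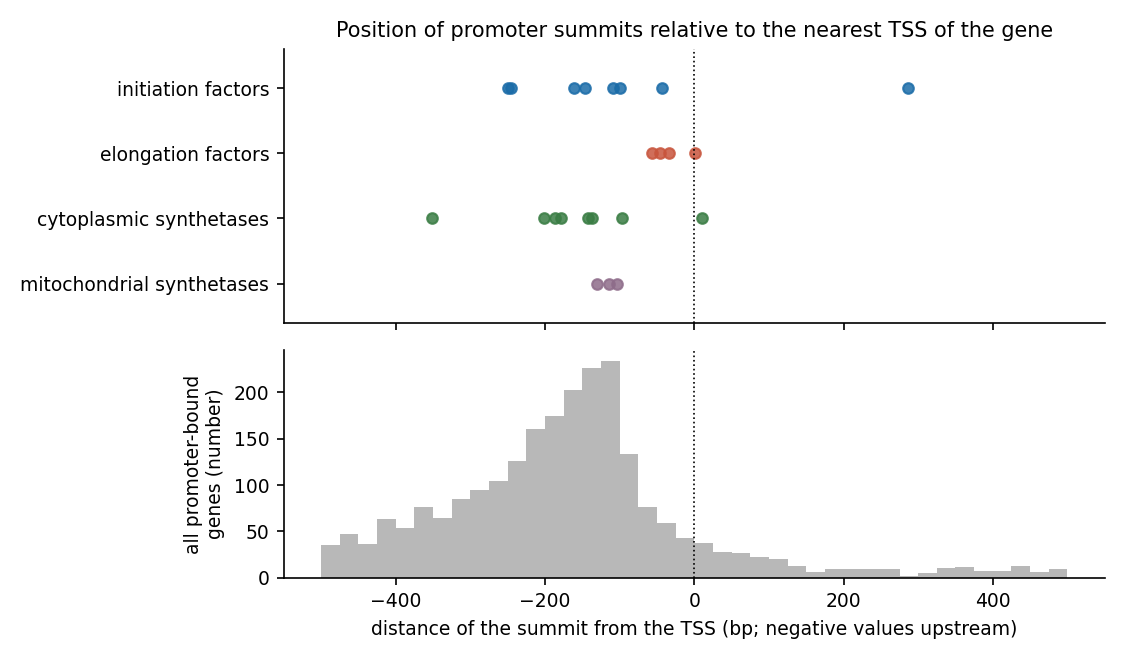
Distance (bp) of the highest promoter summit from the nearest TSS of the gene, with negative values upstream, as points for the 23 bound genes by class (above) and as a histogram in bins of 25 bp for all 2362 promoter-bound genes (below). The 4 elongation factor summits lie between 56 bp upstream and 1 bp downstream, while the median of all promoter-bound genes is -167 bp.

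Most of these promoter peaks cannot be given to a single gene. For 15 of the 23 members (65.2%), against 48.3% of all promoter-bound genes, the summit also lay within 500 bp of a TSS of another protein-coding gene, and at all 15 the nearest such gene was transcribed away from the member. In 5 of the 15 the other gene's TSS was the nearer one: CG18428 at eIF4EHP, AP-1sigma at GluProRS (142 bp to GluProRS and 118 bp to AP-1sigma), Kdm4B at ValRS, O-fut1 at CysRS-m and CG15084 at MetRS. In the other 10 the member was nearer, as at IleRS, which faces Hem, ThrRS, which faces Patsas, AsnRS, which faces DCTN6-p27, and eIF2Balpha, which faces Vps13B. The members with no TSS of another protein-coding gene in the window were eIF6, eEF1gamma, eIF5B, eIF2D, eIF2beta, AlaRS, eEF5 and eEF2. Among these, the AlaRS summit lay inside the gene CG13392, and that of eIF6 inside ytr and an antisense RNA gene.

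Stronger member peaks were found in both replicates more often than weaker ones. Peaks of both replicates held the summit for 16 of the 23 members (69.6%), against 88.7% of all promoter-bound genes. In the upper part of the optimal list by rank this was so for 14 of 15 members (93.3%), against 89.1%, and in the lower part for 2 of 8 (25%), against 87.8%. All 7 missing summits were missing from replicate 2, at ThrRS, eIF2D, MetRS, eIF2beta, eEF5, eEF2 and eEF1alpha1, and 0 from replicate 3. Over the whole optimal list 4.51% of peaks lay in no peak of replicate 2. By their full lists, 23 members had a promoter summit in replicate 2 (27.1%), against 28.6% of all genes, and 37 in replicate 3 (43.5%), against 37.0% of all genes. In replicate 2 that was 1 of 8 elongation factor genes and 8 of 18 cytoplasmic synthetase genes, and in replicate 3 it was 4 of 8 and 11 of 18. The intervals of the member shares, 18.8 to 37.3% in replicate 2 and 33.5 to 54.1% in replicate 3, hold the shares of all genes. The order depended on list depth in replicate 2 only. With only as many of the highest replicate 2 peaks as the optimal list holds, 21.2% of members were bound, against 15.6% of all genes. The same cut in replicate 3 gave 28.2%, against 20.4%.

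**Figure D4:**
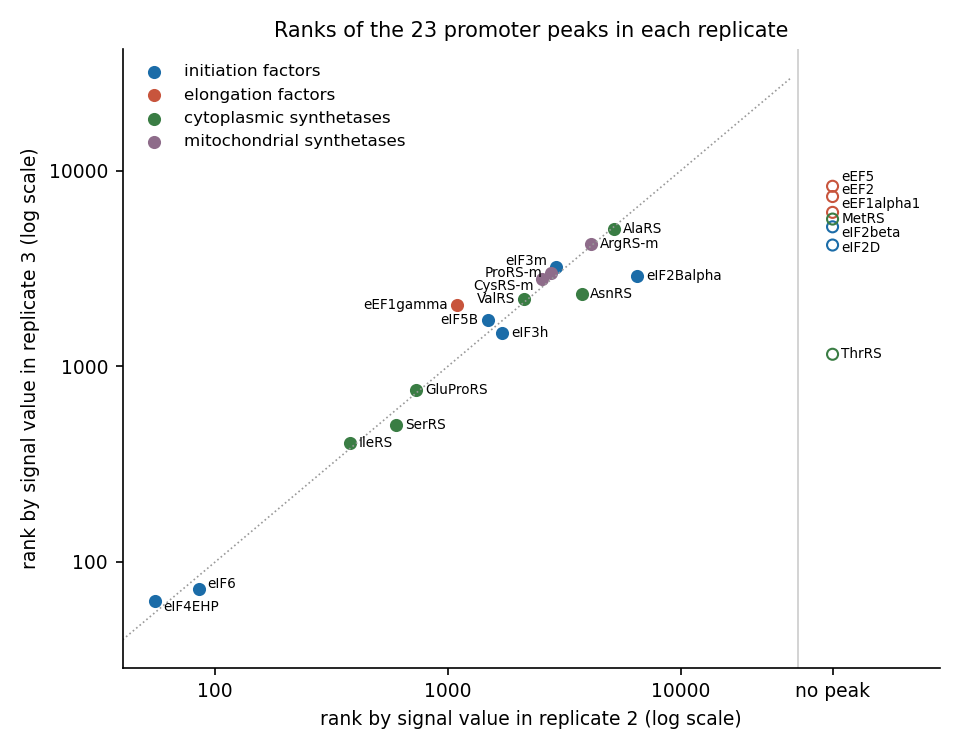
Rank by signal value of the 23 promoter peaks in replicate 2 and in replicate 3 (both log scales, rank 1 highest), with open symbols in the column at right for the 7 peaks not found in replicate 2. The dotted line marks equal ranks. Of the peaks found in both replicates, eIF4EHP and eIF6 lie near it at the strong end. Those at eIF2Balpha (rank 6510 in replicate 2 and 2881 in replicate 3), eEF1gamma (1091 and 2050) and AsnRS (3756 and 2352) lie off it. Replicate 3 alone held 3 of the 4 elongation factor peaks.

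Beyond the optimal list, 7 members had a promoter summit only among the weaker pooled peaks. From the optimal to the pooled list the share rose from 27.1% to 35.3% of members, and from 16.9% to 29.5% of all genes. These 7 were eIF4G2 (96.9), which lay just outside the optimal list at rank 7518, GlyRS (87.1), LeuRS-m (64.7), eIF4B (43.3), eIF4E6 (41.6), HisRS (35.4) and eIF4E4 (20.6), in order of their signal values in the pooled list. The eIF4E4 summit lay in no peak of either replicate. A TSS of another gene was nearer at LeuRS-m (Dhc64C) and eIF4E6 (CG1951), and as near at HisRS (Bx) and eIF4G2 (CG33111). A further 8 members had a promoter summit only in a replicate list, of which eIF1A alone had it in both, with 46.8 in replicate 2 and 87.3 in replicate 3. The other 47 members had no promoter summit in any list. Shares of all genes with a summit only in a replicate list, or in no list, are not given here. For the 62 members that were not promoter-bound, the nearest optimal summit was at a median of 10016 bp from a TSS, against 9072 bp for the 11583 unbound genes on arms that carry an optimal peak.

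For 2 members, strong peaks lay just outside the promoter window. The peak with rank 4 of the optimal list, with a signal value of 4086, 1493 in replicate 2 and 2604 in replicate 3, had its summit 677 bp upstream of eIF2Bbeta on X. It lay 42 bp from the TSS of Ugalt, a UDP-galactose transporter gene, to which the 500 bp window assigned it. A peak with rank 377, with a signal value of 957, 353 in replicate 2 and 598 in replicate 3, lay 838 bp upstream of LeuRS-m. That summit was inside the neighbouring gene Dhc64C. By chromosome arm, promoter-bound members were 6 of 11 on 2L, against 17.5% of all genes there, 7 of 21 on 2R, against 14.6%, 4 of 21 on 3L, against 18.5%, and 6 of 21 on 3R, against 18%. On X they were 0 of 10, against 16.3%, and on 4 they were 0 of 1, against 2.5%.

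Summits inside the genes were uncommon and were concentrated in the long introns of a pair of initiation factor genes. Of the 85 members, 6 held an optimal summit between gene start and end (7.06%, interval 3.28 to 14.6%), against 14.3% of all genes, and 7 held a pooled summit (8.24%), against 23.7%, the further one being eIF4E4. Among genes of up to 5000 bp, a limit chosen after the data were seen, the optimal shares were 4.17% of members (3 of 72) and 4.19% of all genes. The members had a median length of 2522 bp, against 2164 bp for all genes. The gene eIF5B, of 32.3 kb, held 8 optimal summits, 7 of them in introns and 1 in the 5′ UTR, or 2.48 per 10 kb against 0.546 over the 7 arms. Its highest intronic peak, with a signal value of 711, 269 in replicate 2 and 438 in replicate 3, lay 27735 bp downstream of the nearest TSS and exceeded the 419 of the promoter peak. The gene eIF4EHP, of 45.9 kb, held 6, all in introns, or 1.31 per 10 kb, the highest at 515 (204 in replicate 2 and 303 in replicate 3), 9765 bp downstream of its TSS. The protein-coding genes Syx1A and CG10694 lie within eIF4EHP but over none of these 6 summits, and no gene is nested in eIF5B. Every one of the 6 summits lay in a peak of each replicate. Of the 8 in eIF5B, 1 (217) lay outside the peak interval of replicate 3, whose nearest summit was 15 bp away. The density over the 7 arms takes in sequence outside genes, and that of other long genes was not compared.

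The remaining genes with an internal summit were SerRS, eEF5, eIF3h and HisRS. SerRS, eEF5 and eIF3h held 1 each, already counted at their promoters. HisRS was the only member with an optimal summit in the gene and none at a promoter. Its summit, at 18517592 on X with a signal value of 186, 43.7 in replicate 2 and 135 in replicate 3, lay 2164 bp downstream of the TSS in sequence that codes in at least 1 transcript and is overlapped by Bx, which encodes a LIM-only protein. No mitochondrial synthetase gene held a summit in the optimal or pooled list.

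**Figure D5:**
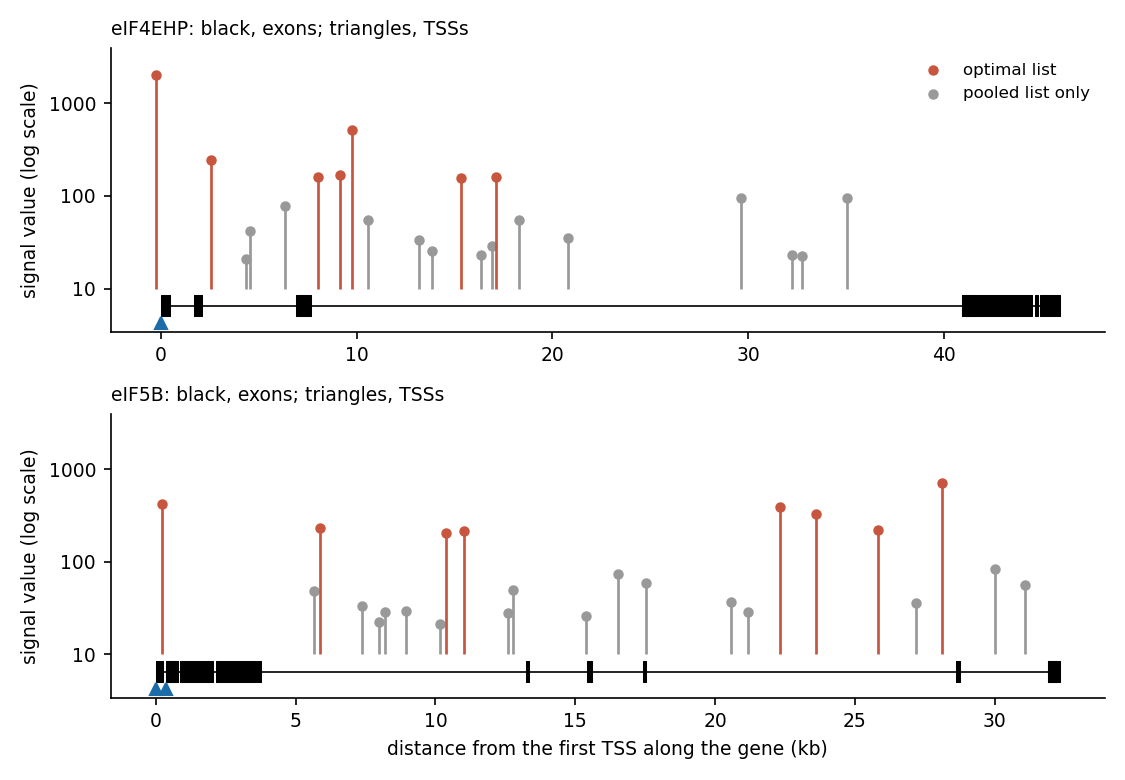
Signal value (log scale) of pooled summits along eIF4EHP (above) and eIF5B (below), against the distance (kb) from the first TSS, in red where the peak is in the optimal list and in grey where it is only in the pooled list. Black boxes are exons of any transcript and triangles TSSs. In eIF4EHP the peak at the start, 2012, is the highest, while in eIF5B the highest, 711, is in a distal intron.

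Sequence words were counted within 50 bp of the 23 member summits and of the highest summits at all promoter-bound genes, of which 1797 were distinct. The Sox core ACAAT was at 11 member summits (47.8%), against 34.9% of all, and AACAAT at 2 (8.7%), against 16.1%. The backward spelling TAACA was at 6 (26.1%), against 32.6%, and TAACAA at 2 (8.7%), against 15%. The DRE word TATCGATA was at 1, that of eEF1gamma (4.35%), against 1.78%, and the E-box CACGTG at 1, that of eEF2 (4.35%), against 0.612%. TAATTA was at 2, those of eIF4EHP and ProRS-m (8.7%), against 14.2%. The core of Motif 1, GGTCACACT, the GATA word AGATAA and GAGAGAG were at 0, against 0.223%, 8.24% and 0.723%. Within 100 bp the order turned for the longer Sox form AACAAT (30.4% of member summits, against 27.6%). It also turned for the backward spellings TAACA (52.2%, against 51.7%) and TAACAA (30.4%, against 25.7%). Each of these counts is small. The GC content of the 101 bp windows ranged from 13.9% at ProRS-m to 52.5% at eIF5B with a median of 31.7%, against a median of 28.7% for all promoter-bound summits.

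The TCT initiator, in which CTTT starts at the TSS, marks many genes of the translation machinery in flies. Read as CTTT starting within 3 bp of a TSS on the gene's strand, it was found at 5 of the 85 members (5.88%), against 4.74% of all genes. These were SerRS, ThrRS, LysRS, TyrRS and eIF3m, of which SerRS, ThrRS and eIF3m were promoter-bound. Of all genes with these letters 24.9% were bound, and of those without 16.5%. Annotated TSSs can lie some bases from the position used, so a match says only that these letters stand near the annotated start.

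Other genes of the pathway, whose symbols the rule does not take, were bound at 7 of the 31 found in the annotation (22.6%), against 16.9% of all protein-coding genes. Of the 5 release and recycling factor genes 3 were bound, with a signal value of 556 at the release factor gene eRF3, 201 at pelo and 188 at HBS1, whose products rescue stalled ribosomes, and not at eRF1 or pix. The peak at eRF3 was found in replicate 3 (393) and not in replicate 2. Of the 8 mitochondrial translation factor genes only mIF2 was bound (126). Of the 12 regulators 3 were bound, pAbp, the gene of the cytoplasmic poly(A)-binding protein, at 483, crc, the fly ATF4 gene, at 126, and Thor, the fly 4E-BP gene, at 111. The pAbp peak was found in replicate 3 (308) only, and the highest Thor peak in replicate 2 (51.5) only. The regulators Gcn2, PEK, Lk6, Tctp, Upf1 and 4E-T had no promoter summit in the optimal or pooled list. None of the 6 genes of synthetase subunits and partners was bound, namely alpha-PheRS, beta-PheRS, AIMP1, AIMP2, AIMP3 and Slimp, of which Slimp alone had a pooled summit (96.3).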

How the data were processed

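Peak lists on dm6 were deposited by the authors in narrowPeak format, and their signal value, never negative, was read from them as given. Per the file lists deposited with the samples, replicate peaks were called on the alignments of each replicate against a control, pooled peaks on both, and the optimal list was derived from these 3 lists. Aligner and caller: not given in the sources used here. Depth is unknown.

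Gene models came from Ensembl release 115, protein-coding genes on 7 arms, and bases from the RefSeq genome of the same build. Calls, counts and words were computed in Python 3.11.15 (pandas 2.3.3, numpy 2.4.6), with scipy 1.17.1 for intervals and matplotlib 3.10.9 for plots, and the promoter call was tested on simulated data. The members, lists, words and rules were chosen with earlier results of these data known. Named with values were all members with an optimal summit at a TSS or in the gene, those with a pooled promoter summit only, all elongation factor genes and the subunits of eIF2, eIF2B, eIF3 and eIF4F. Of 39 other pathway symbols, 8 were not found and were left out. No test between gene classes was made, since the study has 1 group. The closing section gives the effect of other windows, lists and overlap rules.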

Additional observations from a re-analysis of the deposited data

How the results depend on the processing

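Without replicate 2 or replicate 3, with as many of the highest peaks of the remaining replicate, the 85 genes had 18 to 24 promoter-bound, initiation factor genes 8 to 10, elongation factor genes 1 to 3, cytoplasmic synthetases 6 to 8, mitochondrial synthetases 3 to 3, and 5 to 6 genes held a summit inside. The elongation count of 4 thus was 1 without replicate 3 (eEF1gamma) and 3 without replicate 2. The share of all genes bound was 20.4% without replicate 2 and 15.6% without replicate 3, beside 28.2% and 21.2% of members. A summit inside was held by 15% of all genes without replicate 2 and 13.9% without replicate 3, beside 7.06% and 5.88% of members. Among peaks above the median signal, 15 members were bound (17.6%, against 11.6% of all genes), with elongation at 1 and mitochondrial synthetases at 2. At that setting 4 members held a summit inside (4.71%, against 9.68% of all genes). With all pooled peaks, where 29.5% of all genes were bound, initiation stood at 12 and cytoplasmic synthetases at 10. Of genes with a summit inside, counts were 26 with 1000 bp upstream added (30.6%, against 25.3% of all genes), 19 where the peak interval had only to overlap the gene (22.4%, against 19.8%) and 3 for genes of up to 5000 bp. Under the first 2 of these the member share was above that of all genes, where it was below it for summits inside the gene. A window of 250 bp gave 21 bound members (24.7%, against 12.2% of all genes) and one of 1000 bp gave 25 (29.4%, against 20.8%). The canonical transcript alone, an alternative chosen after the data were seen, gave 22 (25.9%, against 14.3%). Of the 23 bound members, 12 stayed bound in all 7 planned settings. Within 100 bp of the summits ACAAT was at 78.3% of member summits, against 54.8% of all. No paired analysis was possible because the study has 1 group. Depth was unknown, so no limit from depth can be given.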
